A study of Mus musculus with 9 samples.

Results

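The genes described here are 8 genes of the tendon lineage, namely Scx, Mkx, Tnmd, Thbs4, Comp, Cilp2, Chad and Col22a1. They were taken by name from a count table of 54532 mouse genes, in which the mouse Ensembl identifier of each was found. Their levels were measured by bulk RNA sequencing of regenerating tibialis anterior muscle. The rule that chose them used no measured value, but it was set with earlier results of these data known.

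Tendon cells arise from progenitors that express the transcription factor scleraxis, and they lay down a matrix of parallel collagen fibrils that is decorated with glycoproteins and small proteoglycans. At the myotendinous junction, where a fibre ends, the muscle cell anchors its cytoskeleton through integrins into that collagen matrix. A dissected limb muscle therefore carries a variable amount of tendon, of tendon sheath and of fibre ends, and the genes of this group are used to follow them. In bulk RNA, fewer tendon cells and less RNA of these genes per cell cannot be told apart.

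The 9 libraries came from C57/BL6J mice in 3 groups of 3 libraries. Young mice of 4 months and old mice of 24 months had received PBS, the vehicle, and a further group of old mice of 24 months had received rMETRNL, the recombinant form of meteorin-like, a secreted cytokine of muscle and of immune cells. All muscles, those of the control groups included, had been damaged by BaCl2, a salt that kills fibres and starts their regeneration, and the study's text describes 3 injections into the muscle, the second 24 h and the third 48 h after the first. The amount of rMETRNL per injection is 0.1 ug in one place of the study's text and 0.1 ng in another. The time of collection is 4 days after injury in the series' own text and 8 days in the study's, and the material is a suspension of dissociated cells in the sample labels but an extract of whole muscle in the study's text. The libraries are called young PBS 1 to 3, old PBS 2 to 4 and old rMETRNL 1 to 3, after their labels. No source used here ties each library to an animal of its own, so the p-values below measure the spread between these libraries, which may be technical.

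The libraries held between 16238700 and 22522560 counts, and between 21470 and 23950 genes had at least 1 count. Levels are given as CPM, counts scaled to a common library size after correction by the trimmed mean of M values (TMM), and 3 counts correspond to 0.133 to 0.185 CPM. The factors of that scaling lay between 0.830 in old PBS 4 and 1.16 in old PBS 3. Transcripts of mature fibres were abundant in every library, with 86170 to 149713 CPM summed over 10 genes in old PBS, so the RNA was not that of mononuclear cells alone. The 3 old PBS libraries also carried transcripts of brain and liver, 66.7 to 152 CPM summed over 6 marker genes, against 0.232 to 0.943 CPM in young PBS and 0.113 to 0.751 CPM in old rMETRNL. Of those 6 genes, 3 were called higher in old PBS than in young PBS and 5 were called lower with rMETRNL than in old PBS. The part of that material in the differences below was not tested, and both comparisons with old PBS contain it.

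None of the 8 genes overlaps another of them in the genome, though Scx and Col22a1 share chromosome 15 and Comp and Cilp2 share chromosome 8. In the GRCm38 annotation (GENCODE M21) all 8 are protein coding. Scx (ENSMUSG00000034161) lies at chr15:76457452-76459458 and Col22a1 (ENSMUSG00000079022) at chr15:71795795-72034227. Comp (ENSMUSG00000031849) lies at chr8:70373558-70382066 and Cilp2 (ENSMUSG00000044006) at chr8:69880369-69887687. Chad (ENSMUSG00000039084) lies at chr11:94565047-94569127, Thbs4 (ENSMUSG00000021702) at chr13:92751590-92794818 and Tnmd (ENSMUSG00000031250) at chrX:133850980-133865577. Mkx has the identifier ENSMUSG00000061013. Scx, Comp, Chad and Tnmd are on the plus strand and the other 4 genes on the minus strand.

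The RefSeq table of promoters (GRCm38.p6) held 4 of the 8 genes, and 3 of these are shown because Tnmd and Thbs4 followed each other most closely over the libraries while Chad varied apart from them. Each stretch reads 5′ to 3′ in the direction of transcription and ends just before the first transcribed base, at chrX:133850758-133850979 (plus strand) for Tnmd, chr13:92794819-92795068 (minus strand) for Thbs4 and chr11:94564797-94565046 (plus strand) for Chad. Capitals mark the E-box CANNTG, the short element that scleraxis and other basic helix-loop-helix factors bind.
Tnmd: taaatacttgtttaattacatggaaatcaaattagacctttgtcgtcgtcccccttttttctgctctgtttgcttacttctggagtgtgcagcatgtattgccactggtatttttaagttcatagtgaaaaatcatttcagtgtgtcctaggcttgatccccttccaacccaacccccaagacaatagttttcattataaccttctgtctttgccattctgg
Thbs4: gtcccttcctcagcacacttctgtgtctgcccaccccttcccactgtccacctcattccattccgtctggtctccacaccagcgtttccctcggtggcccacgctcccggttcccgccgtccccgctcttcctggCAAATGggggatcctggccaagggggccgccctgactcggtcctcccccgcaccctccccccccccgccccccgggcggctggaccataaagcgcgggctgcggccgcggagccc
Chad: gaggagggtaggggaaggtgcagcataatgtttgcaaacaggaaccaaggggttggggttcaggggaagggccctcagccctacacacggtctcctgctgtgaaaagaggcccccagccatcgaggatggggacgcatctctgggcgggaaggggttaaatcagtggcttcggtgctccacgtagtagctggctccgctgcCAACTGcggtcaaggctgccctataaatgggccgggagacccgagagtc

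Windows from 250 bases before to 50 bases after the RefSeq start were searched on both strands. An E-box was present in 3 of the 4 genes' promoters (Cilp2, Chad and Thbs4) and in 72.3% of 32851 promoters. The Cilp2 window (chr8:69887343-69887642) lies wholly inside the gene as GENCODE annotates it (chr8:69880369-69887687). Its matches are therefore promoter matches by the RefSeq start only. Thbs4 held 2 E-boxes, Chad 1, Cilp2 1 and Tnmd 0, where the median promoter held 1, and no E-box overlapped another of the motifs searched. The core of the SMAD element, CAGAC or GTCTG, which factors downstream of TGF-beta bind, was in 2 of the 4 (Cilp2 and Thbs4) and in 49.6% of all promoters. The EGR element GCGNGGGCG or CGCCCNCGC was in Cilp2 alone of the 4 and in 5.55% of all, and the TATA box TATAAA or TTTATA in Chad alone of the 4 and in 13.6% of all. These matches describe letters in a window and do not locate a bound site.

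Compared per kilobase of exon, the scale on which different genes can be set side by side, the 8 genes spanned a wide range of levels. In young PBS the mean level was 91.9 CPM per kilobase for Thbs4, 36.1 for Tnmd, 9.40 for Comp, 5.40 for Scx, 4.61 for Chad, 1.95 for Cilp2, 1.84 for Col22a1 and 0.542 for Mkx. Among neighbours in that order the libraries did not overlap for Tnmd and Comp, with at least 16.4 against at most 12.8 CPM per kilobase, nor for Col22a1 and Mkx, with at least 1.08 against at most 0.637. All other neighbours overlapped, Thbs4 with Tnmd included. In old PBS the order of Tnmd and Comp was turned, with 9.60 CPM per kilobase for Tnmd and 10.7 for Comp, and their libraries overlapped. In old rMETRNL Tnmd was again above Comp, with 18.9 against 10.8 CPM per kilobase and no overlap. The exons of Scx form 1 block of 2007 bases in the annotation, which takes in its intron, so its level per kilobase is a lower estimate.

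**Figure D1:**
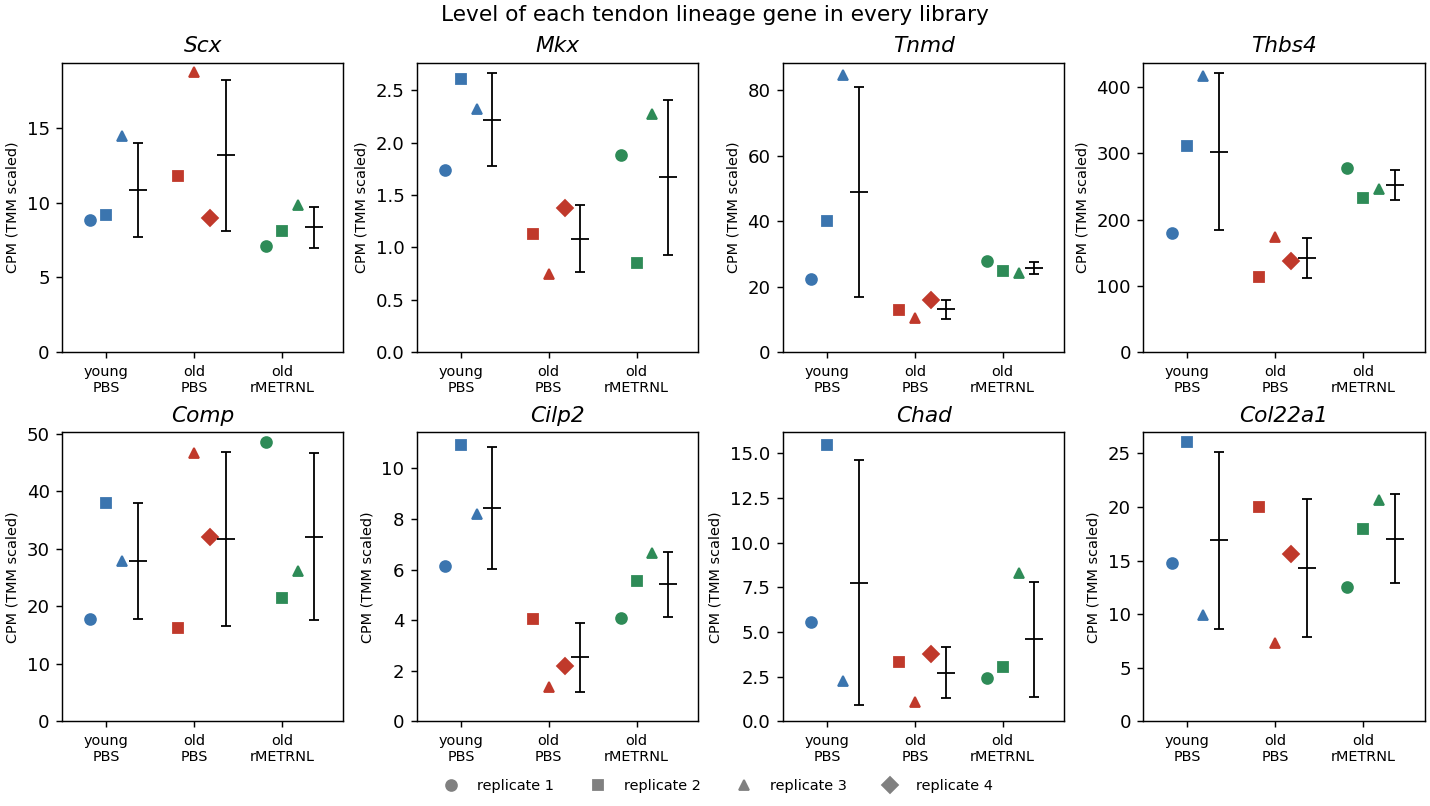
Level of each of the 8 genes in CPM (linear axis from 0, scaled separately for each gene) in the 3 young PBS, 3 old PBS and 3 old rMETRNL libraries, where the shape of a point gives the replicate number and black marks give mean ± SD. For Tnmd, Thbs4 and Cilp2 the old PBS libraries lie below all libraries of the other groups, while for Scx, Comp and Col22a1 the groups overlap.

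The transcription factors of the lineage were at low levels and did not share a pattern. Scx, scleraxis, the basic helix-loop-helix factor that marks tendon progenitors, had 8.86, 9.16 and 14.5 CPM in young PBS, 11.8, 18.8 and 8.96 CPM in old PBS and 7.08, 8.14 and 9.83 CPM in old rMETRNL. The highest of the 9 values was that of old PBS 3, with 428 counts, followed by young PBS 3 and old PBS 2, and the groups overlapped. The means were 10.8 ± 3.16, 13.2 ± 5.05 and 8.35 ± 1.39 CPM (SD, n = 3 each). Scx lies inside Bop1, a ribosome assembly gene on the opposite strand, with 0 exon bases in common, and whether the reads were counted by strand is not given in the sources used here. Bop1 had 24.5 to 33.2 CPM, and its highest value was also in old PBS 3.

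Mkx, mohawk, a homeobox factor needed for the growth of collagen fibrils in tendon, had the lowest mean level of the 8 genes in each group, with 15 to 50 counts per library. It had 1.74, 2.61 and 2.32 CPM in young PBS, 1.13, 0.75 and 1.38 CPM in old PBS and 1.88, 0.85 and 2.28 CPM in old rMETRNL. All 3 old PBS values were below all 3 young PBS values, and old rMETRNL 2 lay among the old PBS values. An overlapping transcript, AC148004.2, shares 201 exon bases with Mkx, 4.91% of its exon length, and has no row in the count table.

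Tnmd, tenomodulin, a transmembrane glycoprotein of differentiated tendon cells, had low levels in old PBS. It had 383, 719 and 1496 counts in young PBS, 195, 234 and 252 in old PBS and 518, 439 and 532 in old rMETRNL. As CPM these were 22.2, 39.9 and 84.6 in young PBS, 12.9, 10.3 and 15.8 in old PBS and 27.8, 24.8 and 24.2 in old rMETRNL. Young PBS was widely spread (48.9 ± 32.2 CPM, SD, n = 3), old PBS (13.0 ± 2.76 CPM) and old rMETRNL (25.6 ± 1.92 CPM) were narrow, and old PBS did not overlap either of the other groups.

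Thbs4, thrombospondin 4, a pentameric matrix glycoprotein of tendon and of the fibre end, was the most abundant of the 8 genes, with 1714 to 7361 counts per library. It had 179, 311 and 416 CPM in young PBS, 114, 174 and 138 CPM in old PBS and 278, 233 and 246 CPM in old rMETRNL. The lowest young PBS value lay just above the highest old PBS value, and the old rMETRNL values lay within the range of young PBS. Comp, cartilage oligomeric matrix protein, is another thrombospondin of tendon and binds collagen fibrils. Over the 9 libraries it did not follow Thbs4 closely (r = 0.369 on log2 CPM, exact permutation p = 0.326). After each group's mean was removed, their r was 0.7. Comp had 17.8, 38.0 and 27.8 CPM in young PBS, 16.3, 46.6 and 32.0 CPM in old PBS and 48.6, 21.4 and 26.1 CPM in old rMETRNL, so each group spanned much of the range of the 9 libraries.

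Cilp2, a secreted matrix protein of the cartilage intermediate layer family, had 6.14, 10.9 and 8.20 CPM in young PBS, 4.04, 1.36 and 2.19 CPM in old PBS and 4.08, 5.54 and 6.65 CPM in old rMETRNL. Old PBS was below both other groups, by a margin of less than 0.1 CPM between old PBS 2 and old rMETRNL 1. Chad, chondroadherin, a leucine-rich protein that binds collagen and integrins, had 5.56, 15.4 and 2.26 CPM in young PBS, 3.31, 1.10 and 3.76 CPM in old PBS and 2.41, 3.05 and 8.29 CPM in old rMETRNL. Its mean in young PBS, 7.75 ± 6.85 CPM (SD, n = 3), rested on young PBS 2, which had 278 counts where the other two had 96 and 40. Chad lies inside Acsf2, a gene of acyl-CoA metabolism on the opposite strand, with 0 exon bases in common. Acsf2 had 5.01 to 12.8 CPM, with the highest value in old PBS 3, where Chad was lowest.

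Col22a1, the chain of collagen XXII, is deposited by fibres at the myotendinous junction. It had 14.8, 26.0 and 9.90 CPM in young PBS, 20.01, 7.32 and 15.6 CPM in old PBS and 12.5, 17.97 and 20.6 CPM in old rMETRNL, and the 3 groups overlapped throughout. An antisense gene, Gm16308, shares 16 exon bases with it, 0.174% of its exon length, and had 0 counts in the young PBS and old PBS libraries and 2 to 3 counts in the old rMETRNL libraries. Over the 8 genes, old PBS 3 was the lowest library for 5 and the highest for 1, and young PBS 2 was the highest for 4.

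The comparison of old PBS with young PBS asked how the age of the mouse bore on the regenerating muscle. Of the 8 genes, all of which passed the filter on low counts, 6 had lower and 2 higher fitted levels in old PBS, and the median log2 fold change was -1.06 against 0.014 over the 15560 genes tested. By edgeR's quasi-likelihood F-test, adjusted after Benjamini-Hochberg over all genes, 0 of the 8 passed a threshold of 0.05, where 0.0643% of all genes did. At an unadjusted p under 0.05, 4 of the 8 were lower (Mkx, Tnmd, Thbs4 and Cilp2), against 2.42% of all genes. In the same 4 genes the old PBS libraries all lay below the young PBS libraries, which held for 5.49% of all genes. DESeq2's Wald test called 3 of the 8 lower (Tnmd, Thbs4 and Cilp2), against 0.145% of all genes, so the call on these 3 genes depended on the test.

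Against young PBS, the level of Tnmd in old PBS was 3.75-fold lower (log2 -1.91 ± 0.44, SE), with an adjusted p of 0.234 by edgeR's quasi-likelihood test and 0.000666 by DESeq2. Without young PBS 3, its highest library, the log2 difference was -1.25. Cilp2 was 3.34-fold lower (log2 -1.74 ± 0.42), with adjusted p-values of 0.264 and 0.00754 by edgeR and DESeq2. Thbs4 was 2.13-fold lower (log2 -1.09 ± 0.31), with adjusted p-values of 0.457 and 0.027 by edgeR and DESeq2. Mkx was 2.05-fold lower (log2 -1.04 ± 0.39), with adjusted p-values of 0.736 and 0.668 by edgeR and DESeq2. For the remaining genes the intervals were wide. The 95% interval of the log2 difference ran from -3.10 to 0.06 for Chad, from -1.21 to 0.75 for Col22a1, from -0.68 to 1.06 for Comp and from -0.42 to 1.01 for Scx.

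**Figure D2:**
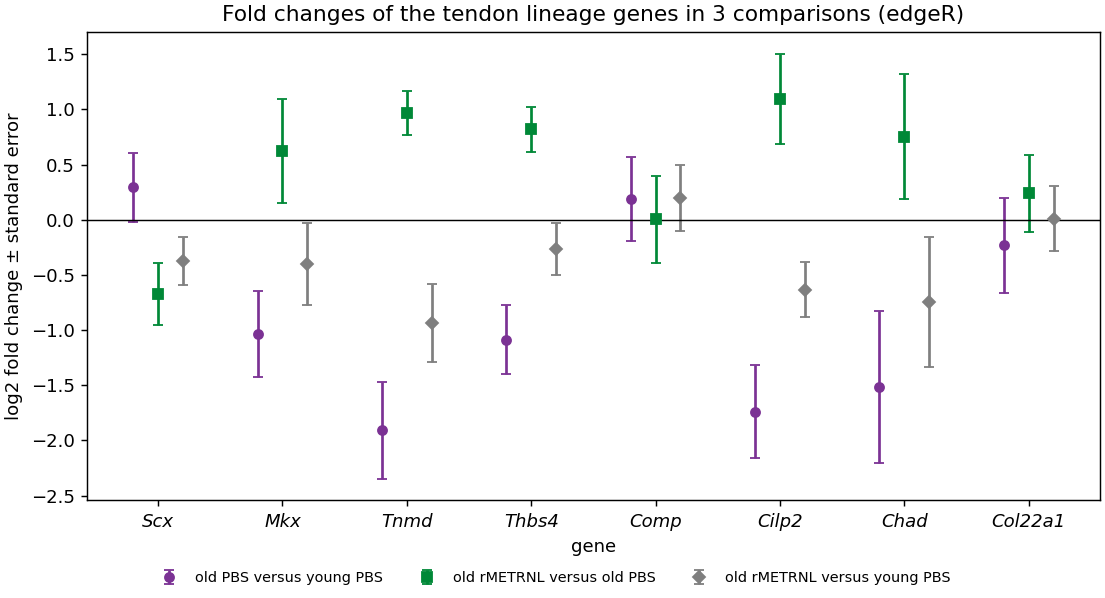
Log2 fold change with its standard error (edgeR, linear axis) of each of the 8 genes in old PBS versus young PBS, old rMETRNL versus old PBS and old rMETRNL versus young PBS, 3 libraries per group. Tnmd, Cilp2 and Thbs4 lie between -1.91 and -1.09 in the first comparison and between 0.82 and 1.10 in the second, and Scx lies at 0.29 and -0.68.

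The comparison of old rMETRNL with old PBS asked how the injected protein bore on the aged muscle. It shares the old PBS libraries with the comparison above, so a low or high value in old PBS enters both with opposite sign, and the values are given side by side only. Fitted levels were higher in old rMETRNL for 7 of the 8 genes and lower for 1, and the median log2 fold change was 0.69 against -0.0056 over the 15682 genes tested. By the same adjusted edgeR test, 0 of the 8 passed the threshold, against 0.108% of all genes. At an unadjusted p under 0.05, 3 were higher (Tnmd, Thbs4 and Cilp2), against 3.51% of all genes, and 1 was lower (Scx), against 4.57% of all genes. The libraries of the groups did not overlap for the same 3 higher genes, which held in that direction for 7.19% of all genes. DESeq2's Wald test called 2 of the 8 higher (Tnmd and Thbs4), against 0.216% of all genes.

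Against old PBS, the level of Tnmd with rMETRNL was 1.95-fold higher (log2 0.97 ± 0.20, SE), with adjusted p-values of 0.119 by edgeR's quasi-likelihood test and 0.0106 by DESeq2. Thbs4 was 1.76-fold higher (log2 0.82 ± 0.21), with adjusted p-values of 0.25 and 0.0114 by edgeR and DESeq2. Without old PBS 3 the edgeR adjusted p was 0.0215 for Tnmd and 0.0119 for Thbs4, so that library decided the call by this test. Over all genes, 604 were then called higher and 956 lower of 15981, against 0 and 17 of 15682 with that library. The unadjusted edgeR p moved from 0.000864 to 0.000882 for Tnmd and from 0.00325 to 0.000244 for Thbs4. The study lists both genes among those that differed most in this comparison of the same libraries, so their direction is not independent evidence. Cilp2 was 2.14-fold higher (log2 1.10 ± 0.41), with adjusted p-values of 0.527 and 0.3 by edgeR and DESeq2. Scx was 1.60-fold lower (log2 -0.68 ± 0.28, edgeR adjusted p = 0.594), the opposite sign to Tnmd, Thbs4 and Cilp2. Without old PBS 3, its highest library, the log2 difference of Scx was -0.33, with an unadjusted edgeR p of 0.177. The 95% interval of the log2 difference ran from -0.44 to 1.68 for Mkx, from -0.54 to 2.04 for Chad, from -0.56 to 1.03 for Col22a1 and from -0.89 to 0.90 for Comp.

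The comparison of old rMETRNL with young PBS asked how far the treated old muscle lay from the young one. The median log2 fold change of the 8 genes was -0.39 against 0.00089 over the 15396 genes tested. By the same adjusted edgeR test, 0 of the 8 and 0% of all genes passed the threshold, and DESeq2 called 0 of the 8. At an unadjusted p under 0.05, 2 of the 8 were lower (Tnmd and Cilp2), against 1.03% of all genes, and the libraries of the groups overlapped in all 8. Tnmd was 1.91-fold lower than in young PBS (log2 -0.93 ± 0.35, edgeR adjusted p = 1), but its log2 difference was -0.28, with an unadjusted edgeR p of 0.193, without young PBS 3. Cilp2 was 1.55-fold lower (log2 -0.63 ± 0.25, edgeR adjusted p = 1). The log2 difference of Thbs4 was -0.26, with a 95% interval from -0.78 to 0.26, and that of Scx was -0.37, with an interval from -0.85 to 0.10.

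Over the 9 libraries, 28 pairs of the 8 genes were correlated on log2 CPM. Tnmd and Thbs4 gave r = 0.892 (exact permutation p = 0.00114, adjusted over the 28 pairs 0.0319) and rho = 0.933 (exact permutation p = 0.00075, adjusted 0.021). Without the 2 libraries farthest from the median of Tnmd, r was 0.963, and after each group's mean was removed it was 0.75. Chad and Col22a1 gave r = 0.866 (exact permutation p = 0.00276, adjusted 0.0386) and rho = 0.85 (exact permutation p = 0.00607, adjusted 0.0567). Without the 2 libraries farthest from the median of Chad, r was 0.633, so the relation rests in part on those libraries, and after each group's mean was removed it was 0.917. No other pair had an adjusted p under 0.05. The permutations ran over all 9 libraries without regard to group, so these p-values also reflect differences between the groups. No p-value was computed after the group means were removed. The libraries share groups, depth and scaling, so these values describe the 9 libraries.

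**Figure D3:**
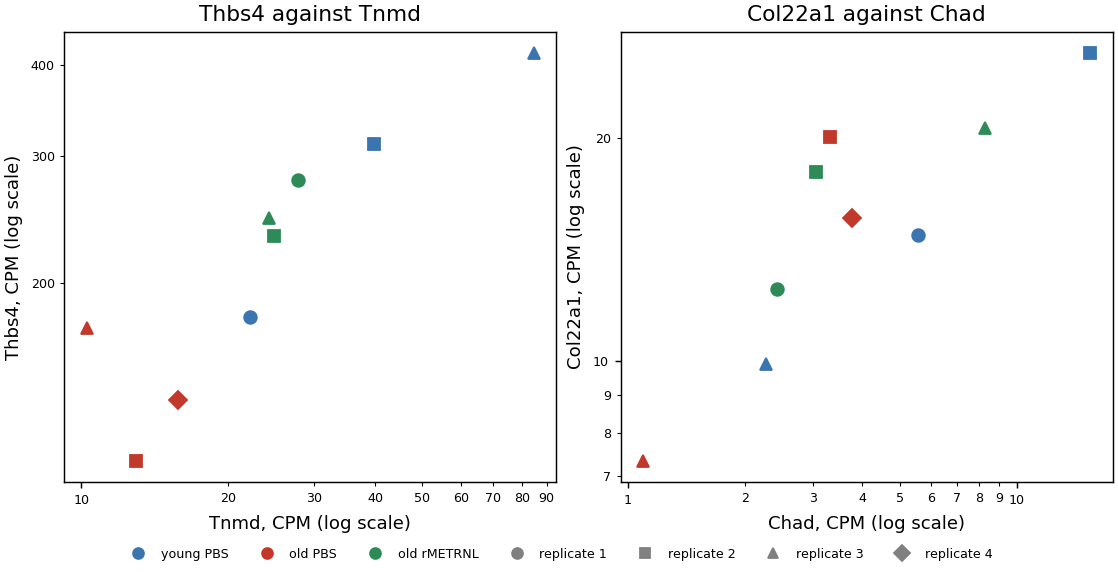
Thbs4 against Tnmd and Col22a1 against Chad, both in CPM on log axes, with 1 point per library, where colour gives the group and shape the replicate number. For Thbs4 against Tnmd the old PBS libraries lie at the lower left, at 10.3 to 15.8 CPM of Tnmd, and for Col22a1 against Chad the groups are mixed.

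Ratios between genes within a library, chosen after the values were seen, do not depend on the scaling of the library. The log2 ratio of Tnmd to Scx per kilobase was 2.57 ± 0.62 in young PBS, 0.59 ± 0.85 in old PBS and 2.20 ± 0.34 in old rMETRNL (SD, n = 3 each). Old PBS lay below both other groups (exact permutation p = 0.1 for each, the smallest that 3 libraries against 3 allow, adjusted 0.4 over 12 tests). The log2 ratio of Thbs4 to Comp was 3.27 ± 0.44, 2.12 ± 0.47 and 2.92 ± 0.49 in the same groups, with an exact permutation p of 0.1 for old PBS versus young PBS and 0.2 for old rMETRNL versus old PBS (adjusted 0.4 and 0.48).

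Against the chain of collagen I, Col1a1, which tendon cells and other fibroblasts make, the groups overlapped. The log2 ratio of Tnmd to Col1a1 was -3.83 ± 0.50, -4.25 ± 1.15 and -4.38 ± 0.28, with exact permutation p-values of 0.7, 0.9 and 0.2 in the 3 comparisons. The log2 ratio of Thbs4 to Col1a1 was -2.35 ± 0.24, -2.08 ± 0.72 and -2.36 ± 0.30, with exact permutation p-values of 0.9, 0.7 and 1. In both ratios old PBS was the widest group.

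**Figure D4:**
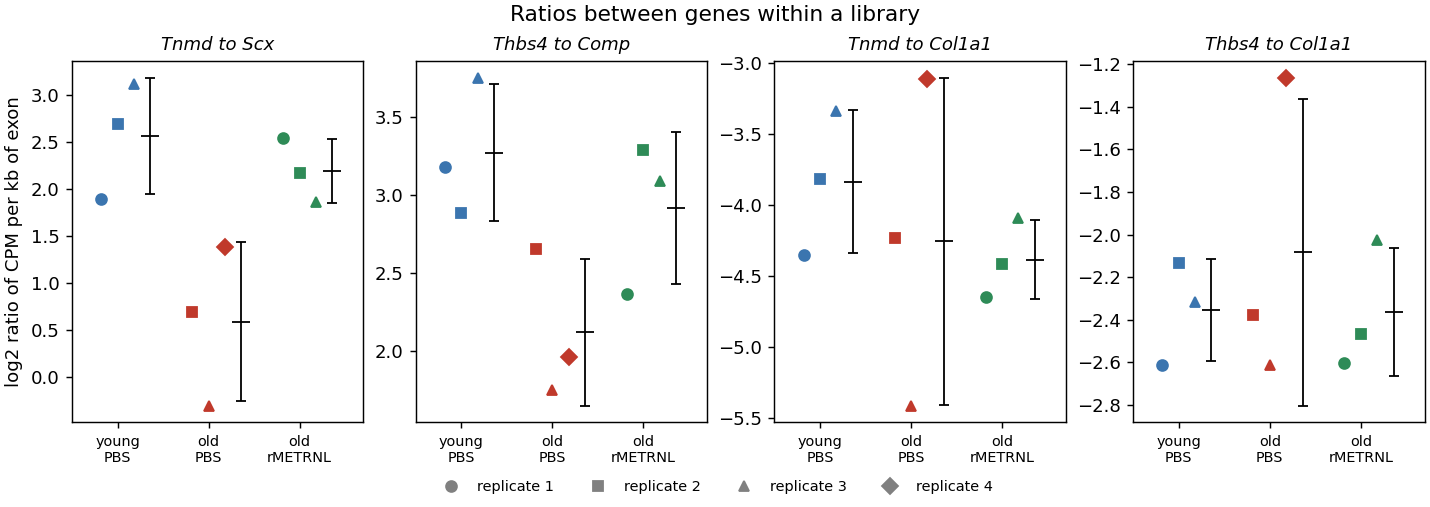
Log2 ratios of CPM per kilobase of exon between genes of the same library (linear axes, scaled separately), with 1 point per library, shape for the replicate number and black marks for mean ± SD. The ratio of Tnmd to Scx is lowest in the 3 old PBS libraries (0.59 ± 0.85), and the ratios to Col1a1 overlap between the groups.

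Outside the 8 genes, those whose levels came nearest to each gene's over the 9 libraries were sought among 16123 genes, as a description with no test. For Tnmd they were Zfp185 (r = 0.972, rho = 0.95) and Sf3a1 (r = 0.951, rho = 0.883). For Thbs4 they were the splicing factor gene Eftud2 (r = 0.972, rho = 0.983) and Fibin (r = 0.969, rho = 0.933), a secreted factor. For Comp they were Irf7 (r = 0.978, rho = 0.983) and Isg15 (r = 0.971, rho = 0.967), both genes of the interferon response. For Scx they were Tmem198 (r = 0.967, rho = 0.817) and Ccdc162 (r = 0.943, rho = 0.9), and for Chad Six2 (r = 0.942, rho = 0.917), a homeobox gene of connective tissue, and Jph2 (r = 0.925, rho = 0.833), a junctional protein of the fibre. For Col22a1 they were Wnt16 (r = 0.942, rho = 0.833) and the pseudogene Amd-ps3 (r = 0.933, rho = 0.917). Mkx was nearest to Irx3os (r = 0.917, rho = 0.95) and Gm35048 (r = 0.885, rho = 0.867), and Cilp2 to 4932422M17Rik (r = 0.940, rho = 0.9) and Carm1 (r = 0.928, rho = 0.783).

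The wider tendon programme was followed in 3 further lists. The list of tendon and sheath matrix held 24 genes, all tested. Between old PBS and young PBS, 12 were lower and 0 higher at an unadjusted p under 0.05, against 2.42% lower and 3.5% higher among all genes, 0 passed the adjusted threshold, and the median log2 fold change was -0.77. Between old rMETRNL and old PBS, 14 were higher and 0 lower, against 3.51% and 4.57% of all genes, 0 passed the adjusted threshold, and the median was 0.76. The summed level was 14043 to 21254 CPM in young PBS, 5916 to 11985 CPM in old PBS and 13277 to 20586 CPM in old rMETRNL. The most abundant were Col3a1, the chain of collagen III (log2 -1.01 ± 0.37 in old PBS versus young PBS and 1.14 ± 0.39 in old rMETRNL versus old PBS), and Col1a2, a chain of the main tendon collagen (-1.25 ± 0.39 and 1.06 ± 0.36). Kera, keratocan, a small proteoglycan of cornea and tendon, was at -2.15 ± 0.54 and 1.62 ± 0.43, with 10.7, 15.1 and 30.7 CPM in young PBS, 5.17, 1.53 and 6.08 CPM in old PBS and 15.1, 11.8 and 12.2 CPM in old rMETRNL. Cthrc1, a secreted protein of matrix-forming fibroblasts, was at -1.15 ± 0.38 and 1.31 ± 0.35. The study lists Col3a1, Kera and Cthrc1 too among the genes that differed most between old rMETRNL and old PBS in these libraries. Most genes of this list are also made by fibroblasts of the muscle, so the list does not separate tendon from the muscle's own connective tissue.

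The list of tendon regulators, growth factors and transcription factors that act on tendon cells, held 18 genes, of which 15 were tested, and its medians lay near those of all genes. Between old PBS and young PBS, 1 was lower and 0 higher at an unadjusted p under 0.05 (Nfatc4, log2 -0.83 ± 0.31), and the median was 0.039. Between old rMETRNL and old PBS, 1 was higher (Nfatc4, 0.70 ± 0.31) and 1 was lower (Foxp2, -1.40 ± 0.46), and the median was -0.17. Among all genes 2.42% were lower and 3.5% higher in the first comparison, and 4.57% lower and 3.51% higher in the second. Nfatc4, a calcium-dependent transcription factor, was named after its values were seen. Tgfbr2, the receptor on which tendon cells depend for TGF-beta signals, was at -0.28 ± 0.18 and 0.34 ± 0.18 in those comparisons, and Fgf18, a growth factor, at -0.51 ± 0.32 and 0.81 ± 0.41. No gene of the list passed the adjusted threshold.

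The list of the myotendinous junction held 16 genes, all tested in the comparisons with old PBS. In old PBS against young PBS, 1 was higher and 1 lower at an unadjusted p under 0.05, with a median of -0.20, and in old rMETRNL against old PBS, 1 was higher and 1 lower, with a median of 0.15. The same pair of genes gave these counts. The shares of all genes were 2.42% lower and 3.5% higher in the first comparison, and 4.57% lower and 3.51% higher in the second. Col24a1, a minor fibrillar collagen of the junction, was at log2 -1.05 ± 0.28 and 0.98 ± 0.22, with 24.8, 19.8 and 34.5 CPM in young PBS, 16.6, 11.7 and 9.59 CPM in old PBS and 24.8, 26.3 and 24.2 CPM in old rMETRNL, and it is among the genes the study lists from the second comparison. Slc24a2, an ion exchanger that neurons also express, was at 3.28 ± 0.75 and -3.36 ± 0.67, the reverse of Col24a1, and it was highest in the 3 libraries that held the brain and liver transcripts. The abundant Xirp2, an actin-binding protein of the fibre, was at 0.12 ± 0.33 and -0.56 ± 0.35, and Itgb1, the integrin chain of the junction, at -0.13 ± 0.21 and 0.08 ± 0.21. No gene of the list passed the adjusted threshold, and its summed level overlapped between the groups (2967 to 3599, 2593 to 4113 and 2532 to 3158 CPM).

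**Figure D5:**
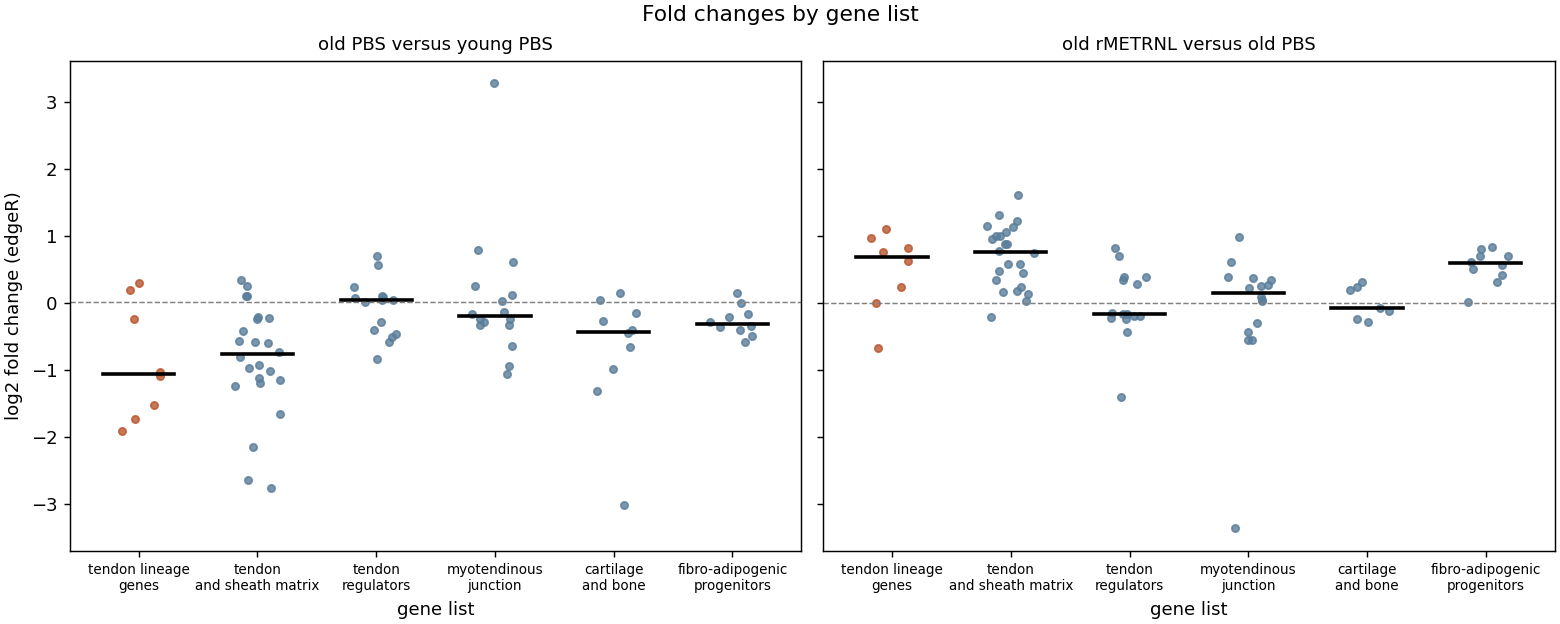
Log2 fold changes (edgeR) of the 8 genes and of 5 gene lists in old PBS versus young PBS and in old rMETRNL versus old PBS, with 1 point per gene tested, a black bar at each list's median and a dashed line at the median of all genes. The medians of the 8 genes (-1.06 and 0.69) and of the tendon and sheath matrix (-0.77 and 0.76) lie away from the dashed line. So do those of the fibro-adipogenic progenitors (-0.32 and 0.59). Cartilage and bone lie at -0.43 and -0.070, the myotendinous junction at -0.20 and 0.15, and the tendon regulators near the line (0.039 and -0.17).

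Markers of other cell types were read beside these results, with the same shares of all genes past an unadjusted p under 0.05 as background (2.42% lower and 3.5% higher in old PBS versus young PBS, 4.57% lower and 3.51% higher in old rMETRNL versus old PBS). Cartilage, like tendon, makes Comp, Cilp2 and Chad, and markers of cartilage and bone were mostly scarce. Of the 16, 10 were tested in old PBS against young PBS, where 1 was lower at an unadjusted p under 0.05 (Acan, aggrecan, log2 -3.01), and 7 were tested in old rMETRNL against old PBS, with 0 in either direction. In old rMETRNL against young PBS, 3 of 9 were lower, against 1.03% of all genes. Their summed level overlapped between the groups (137 to 177, 127 to 200 and 118 to 156 CPM), and most of it came from Sox6 (125 CPM on average over the 9 libraries), which fibres express too. Acan was named after its values were seen. It had 5, 22 and 89 counts in young PBS and 2, 11 and 2 in old PBS, so its difference rests on few counts and mostly on young PBS 3.

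Fibro-adipogenic progenitors, are interstitial cells and a main source of the muscle's collagen. Of their 10 markers, 2 were lower in the old PBS libraries than in the young at an unadjusted p under 0.05 (median -0.32) and 7 were higher with rMETRNL than in old PBS (median 0.59), and 0 passed the adjusted threshold. Their summed level was 1020 to 1197 CPM in young PBS, 766 to 943 CPM in old PBS and 1132 to 1683 CPM in old rMETRNL. Macrophage markers had 2 of 10 lower in the first comparison (median -0.33) and 3 of 10 higher in the second (median 0.39). The fitted levels of all 10 were lower in the first and higher in the second. Endothelial markers had 1 of 7 lower (median -0.29) and 2 of 7 higher (median 0.39), with fitted levels lower for 6 and then higher for 6. These cell types thus shifted in the same directions as the median of the 8 genes. Markers of mature fibres (medians 0.050 and -0.15) and of new fibres (medians 0.38 and -0.50) had 0 in both comparisons. Those of dissociation stress had 1 of 7 higher and then 1 of 7 lower (medians 0.028 and -0.046). None of the fibro-adipogenic, macrophage, endothelial or fibre markers was at 0 throughout a group. The part of these cell types in the levels of the 8 genes was not tested.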

How the data were processed

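The deposited table holds raw counts per gene, which the authors made from reads of NEBNext Ultra libraries. The submitters' processing notes name STAR, featureCounts and the build mm9, with no versions, and 54495 of the 54532 gene identifiers are in the GRCm38 annotation used here for positions and lengths. Nothing was converted between builds. The table's sample columns all matched a label.

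Genes were kept by edgeR's filterByExpr, scaled by TMM and tested in pairs of groups by edgeR's quasi-likelihood test (version 4.0.16, R 4.3.3), two-sided, with Benjamini-Hochberg adjustment over all genes tested and a threshold of 0.05. DESeq2 (version 1.42.0, default Wald test) was the alternative, after the study's methods. CPM used TMM factors from all 9 libraries, and log2 CPM a prior count of 2. Intervals of 95% use the t distribution with edgeR's total degrees of freedom. Correlations were tested by exact permutation (scipy 1.17.1). The edgeR step was first tested on simulated data. The 8 genes and all lists were chosen with earlier results of these data known. From each list the text names genes past the threshold, otherwise at most the 2 of highest mean CPM and the 2 of largest log2 fold change in old rMETRNL versus old PBS; genes named outside this rule are said to be. 1 gene that the rule names is not reported here. Alternatives were other size factors, no filter, a minimum of 10 counts in every library, DESeq2, all 9 libraries in 1 fit, a replicate block and leaving out each library.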

Additional observations from a re-analysis of the deposited data

How the results depend on the processing

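Of 288 refits of single genes (8 genes, 3 comparisons and 12 alternatives each), 255 kept the direction and the side of the threshold, 13 kept the direction and now passed, and 20 changed sign. The genes called, 0 throughout in the reported fits, were 3 in old PBS versus young PBS (Tnmd, Thbs4 and Cilp2) without the filter on low counts and by DESeq2, 2 in old rMETRNL versus old PBS (Tnmd and Thbs4) under the same settings, and 1 in old rMETRNL versus young PBS (Tnmd) without the filter. Leaving out 1 library gave 0 to 0, 0 to 2 and 0 to 0 genes called in the 3 comparisons, the 2 without old PBS 3. The median log2 fold change of the 8 genes then ranged from -1.27 to -0.72, from 0.23 to 0.90 and from -0.60 to -0.26. The lowest of the second range was without old rMETRNL 3, and without old PBS 3 that median was 0.40. 

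Comp changed sign to -0.0035 with DESeq2's size factors in old rMETRNL versus old PBS. With 1 library left out, log2 fold changes crossed 0 in old PBS versus young PBS for Scx (-0.050 to 0.56), Comp (-0.20 to 0.50) and Col22a1 (-0.56 to 0.22), in old rMETRNL versus old PBS for Comp (-0.43 to 0.39) and Col22a1 (-0.083 to 0.57), and in old rMETRNL versus young PBS for Comp (-0.23 to 0.49), Col22a1 (-0.26 to 0.47), Chad (-1.50 to 0.24) and Thbs4 (-0.53 to 0.038). The cause was not tested. Same-numbered libraries deviated together with r of -0.316 to 0.412, and differently numbered ones with r of -0.440 to 0.377. The numbers thus gave no sign of pairing, which these few values cannot exclude. With a replicate block the median was -1.38 in old PBS versus young PBS, and 0 of the 8 genes were called. Comp was at -0.20 there and at -0.25 in old rMETRNL versus old PBS. Old PBS is numbered 2 to 4 and the other groups 1 to 3. In the comparisons with old PBS, that fit therefore drew its differences from the libraries numbered 2 and 3 alone.

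Over all genes, the calls higher and lower in old PBS versus young PBS were 10 and 0, but 291 and 63 without the filter, 238 and 27 by DESeq2, 60 and 3 with all 9 libraries, 3 and 0 with at least 10 counts in every library and 289 and 112 without old PBS 3. In old rMETRNL versus old PBS they were 0 and 17, but 157 and 583, 43 and 311, 3 and 68, 0 and 1 and 604 and 956 in the same order, and 2 and 63 with the replicate block. In old rMETRNL versus young PBS they were 0 and 0, but 40 and 92 without the filter and 0 and 1 without old rMETRNL 3. Mkx had 15 to 50 counts per library.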

Other observations

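Comp was at 46.6 CPM in old PBS 3 and 48.6 CPM in old rMETRNL 1, its highest libraries. Irf7, the interferon regulatory factor nearest to it, was at 62.7 and 52.6 CPM there, also its highest, and at 20.3 to 46.5 CPM in the others.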
